A study of Mus musculus with 18 samples.

Results

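The earliest point of the ACL rupture time course is the comparison of injured with contralateral knees 1 day after rupture. Its members are the 3 libraries labelled as right knees and the 3 labelled as left knees at day 1, 6 of the 18 libraries of the series. All came from male C57Bl/6J mice aged 12 weeks. Under anaesthesia, the right knee of each injured mouse received a single load of 12 N that ruptured the anterior cruciate ligament (ACL). The left knee, which was not loaded, is the contralateral control of the same animal, so both groups carry the anaesthetic, the buprenorphine given to the mouse and any response of the whole body. Cartilage caps of the femoral condyle, detached from the bone at the tidemark, were pooled over several mice for each library. Which injured pool shares its mice with which contralateral pool is not given in the labels, and the sources differ on the number of mice per pool and on whether medial caps were taken. The 6 libraries were therefore treated as independent, and the 3 injured and 3 contralateral libraries are numbered in the order of their deposit, which pairs nothing. The other 12 libraries are 6 of knees from naïve mice, which were neither loaded nor injured and are labelled day 7, and 3 injured and 3 contralateral at day 7. The naïve libraries, which may share mice among themselves by 1 of the sources, give the range of uninjured cartilage below and differ from the day 1 knees in the labelled day too, and the day 7 libraries give genes whose day 1 values are of interest. Total RNA without ribosomal RNA was sequenced, and estimated counts were summed per gene. Totals were 29086832, 27495721 and 21149762 in the injured and 25016972, 25344942 and 41794005 in the contralateral libraries.

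Articular cartilage is a tissue of few cells, the chondrocytes, in a matrix of type II collagen fibrils and aggrecan. After a mechanical injury, immediate early genes, cytokines and chemokines are known to be induced within hours in cartilage and in the lining of the joint, whereas genes of matrix synthesis and turnover respond over days. Loss of the ligament also leaves the knee unstable, so that cartilage is loaded abnormally from the first step onwards.

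The labels name cartilage and chondrocytes, and the defining markers were present. All 16 chondrocyte markers were tested, and none was under 7.14 CPM (a gene's counts scaled to a fixed library total after TMM normalization) in any of the 6 libraries. Col2a1, the chain of type II collagen, was at 3594, 2231 and 3617 CPM in the injured and 2610.5, 2450.4 and 2562 CPM in the contralateral libraries. Sox9, the transcription factor of the chondrocyte lineage, was at 23.8, 21.7 and 18.3 CPM and 18.9, 14.1 and 20 CPM, in the same order. The tissue was not cartilage alone. Col1a1, the chain of type I collagen of bone, tendon and fibrous tissue, was at 7150 to 20240 CPM, and Hbb-bs, a haemoglobin chain of red cells, was at 7072 to 16941 CPM. Neither marks cartilage, and both were abundant in every library. In bulk tissue, fewer cells of a type and less RNA per cell cannot be told apart.

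Libraries were about as alike between knees as within a knee. In log2 CPM, pairs of libraries within a group correlated across genes with Pearson's r from 0.9744 to 0.9836 (median 0.9809, 6 pairs), and pairs of an injured and a contralateral library from 0.9752 to 0.9885 (median 0.9811, 9 pairs). These are values across genes, which are not independent replicates. The most similar pair was injured library 2 and contralateral library 3, which lie in different groups. They also stood apart together on the first principal component of the day 1 and naïve libraries (20.8% of the variance), at 42.4 and 36.3, next to naïve library 5 at 45.2, while the other 9 libraries lay between −29.4 and 3.78. A 2-sided exact permutation test of 3 injured against 3 contralateral libraries gave p = 0.7 on that component and p = 0.2, 0.9 and 0.1 on the next 3, where 0.1 is the smallest p that the design allows.

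The 2 libraries that stood apart shared high levels of some genes, named here after their values were seen. Prg4, which encodes the lubricant lubricin, was at 1811 CPM in injured library 2 and 1685 CPM in contralateral library 3, against 575 to 905 CPM in the other 4. Tgfbi, a matrix protein induced by TGF-beta, was at 395 and 484 CPM, against 132 to 173 CPM. The list of 15 synovial fibroblast markers as a whole was not high there: its median level against the mean of the 6 libraries, in log2, was −0.20 and −0.18, against −0.18 to 0.40 in the other 4. Both libraries were low in markers of fat and muscle. The 14 adipocyte markers summed to 509.6 and 625.6 CPM, against 1091 to 1671 CPM in the other 4, and the 16 skeletal muscle markers to 5639 and 7040 CPM, against 10202 to 19572 CPM. Because the libraries belong to different groups, the counts over all genes and those of many lists are also given without them, a choice made after seeing the data. They were the most similar pair across the groups, and leaving them out favours a wider gap between the knees, so values without them are a description and support nothing. A second pair shared high interferon-stimulated genes: Irf7, a transcription factor of the interferon response, was at 86.4 CPM in injured library 1 and 225 CPM in contralateral library 2, against 24.4 to 31.7 CPM in the others. It reached 227 CPM in the naïve libraries.

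No gene was called at day 1. Of 21129 genes tested with edgeR's quasi-likelihood test, 0 (0%) reached both a false discovery rate (FDR) no higher than 0.05 and a 1.5-fold difference, and the lowest FDR was 0.755. Limma-voom and DESeq2 called 0 as well, with lowest FDRs of 0.693 and 0.186. At an unadjusted p under 0.05, 699 genes (3.31%) were higher and 684 (3.24%) lower in the injured knee, 1383 in all, where 5% of the genes tested is 1056. All 3 injured libraries lay above all 3 contralateral libraries for 1058 genes (5.01%) and below them for 1279 (6.05%). The median log2 fold change over all genes was −0.00152. Without injured library 2 and contralateral library 3, 0 genes were called, the lowest FDR was 0.376, and 1190 genes of 21518 (5.53%) were higher and 916 (4.26%) lower at an unadjusted p under 0.05. The counts at that p rested on single libraries: they were 1352 and 1257 without injured library 2, and 289 and 241 without injured library 3, again with 0 genes called in either case.

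The precision bounds what could have been missed. Of 16225 genes with a mean of at least 1 CPM, 10283 (63.4%) had a 95% interval of the fold change that lay within 1.5-fold in both directions, and 14465 (89.2%) had one within 2-fold. The median standard error of the log2 fold change was 0.151 for these genes and 0.435 for the 4904 genes below 1 CPM. For 5942 genes of at least 1 CPM the interval reached beyond 1.5-fold in at least 1 direction. A 1.5-fold difference was thus not detectable at this depth and number of libraries for many genes, and not only for those of low level. The plot of fold change by level shows the widening at its left.

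**Figure D1:**
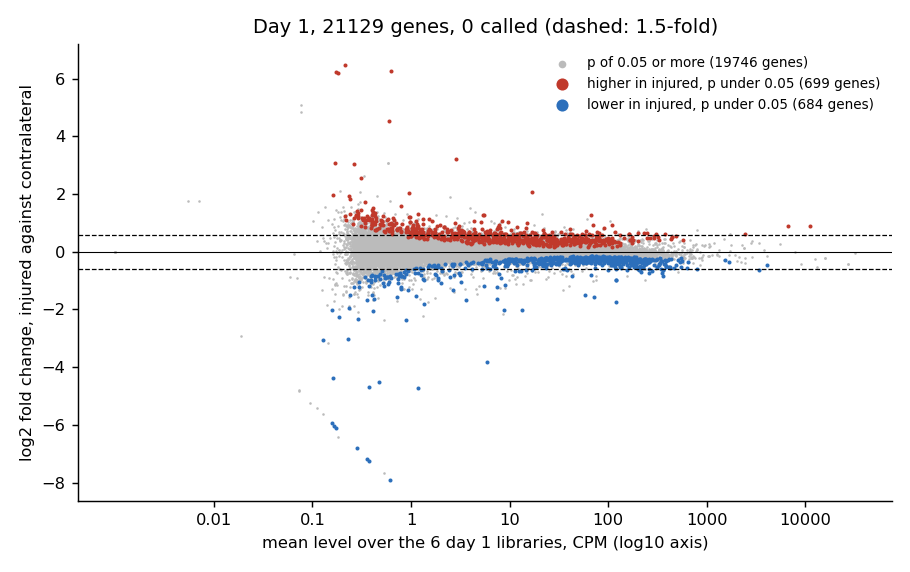
Log2 fold change of injured against contralateral knees at day 1 for 21129 genes (vertical axis) by the mean level over the 6 libraries in CPM (horizontal axis, log10 scale). Each point is a gene, red and blue points are the 699 higher and 684 lower genes at an unadjusted p under 0.05, dashed lines mark 1.5-fold, and none of the genes was called.

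Since no gene passed, the genes described next are those of smallest p among protein-coding genes of at least 1 CPM whose groups did not overlap, 12 in each direction. All of them have an edgeR adjusted p of 0.755 or more, so their differences are values and not calls. Among the 12 higher genes, lumican and Pcolce are of the matrix or its making, and C1qtnf6 encodes a secreted protein. Lumican (Lum), a small leucine-rich proteoglycan that binds collagen fibrils, lies on chromosome 10 from 97565128 to 97572703 of GRCm38. It was at 142, 162 and 166 CPM in the injured libraries and 92.3, 107 and 115 CPM in the contralateral libraries. The lowest injured library was above the highest contralateral one, and the log2 fold change was 0.58 ± 0.15 (SE, 3 against 3 libraries, 95% interval 0.25 to 0.91). Pcolce, the enhancer of the proteinase that trims procollagen, was at 111, 79.5 and 103.3 CPM against 54.4, 57.8 and 75.5 CPM, a log2 fold change of 0.65 ± 0.17. C1qtnf6, a secreted protein of the C1q and TNF-related family (chromosome 15 from 78523346 to 78531416), was at 21.7, 25.5 and 28.8 CPM against 14.6, 17 and 20.2 CPM, or 0.55 ± 0.13. The naïve libraries covered the gap for these 3 genes, at 107 to 152 CPM, 66.0 to 101 CPM and 18 to 23.2 CPM, so that neither knee lay wholly outside their range.

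Of the other 9, 4 encode receptors, a transporter or other proteins of the cell surface. Cd109, a membrane co-receptor that restrains TGF-beta signaling (chromosome 9 from 78615546 to 78716253), was at 88.7, 81.8 and 95.4 CPM in injured against 64.1, 55.1 and 64.1 CPM in contralateral libraries, a log2 fold change of 0.54 ± 0.13 (95% interval 0.26 to 0.81). All 3 contralateral libraries were below the lowest naïve library at 71.6 CPM, and 2 injured libraries were within the naïve range, with injured library 3 at its upper end. The adhesion G protein-coupled receptors Adgra3 and Adgrd1 showed the other arrangement. Adgra3 was at 32.7, 30.6 and 34.6 CPM against 23.8, 22.5 and 26.5 CPM, with naïve libraries at 24.4 to 30.3 CPM, and Adgrd1 at 21.3, 21.4 and 22.6 CPM against 11.9, 12.1 and 17.7 CPM, with naïve libraries at 14.8 to 20.5 CPM. For both, the injured libraries were above all 6 naïve libraries. The same held for Gpr137b, a lysosomal membrane protein, at 33.0, 32.7 and 33.7 CPM against 27.1, 24.5 and 25.4 CPM, and for Slc6a2, the noradrenaline transporter, at 3.47, 3.15 and 5.50 CPM against 1.85, 1.95 and 2.58 CPM. Anks6, a protein of the primary cilium, had the smallest p of the 12, at 3.54, 3.73 and 4.95 CPM against 2.25, 2.47 and 2.60 CPM, and also above the naïve libraries. The remaining 3 were Shc2, an adaptor of receptor tyrosine kinases (log2 fold change 0.67), Sgms2, a sphingomyelin synthase (0.41), and C77080 (0.49).

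The 12 lower genes included 4 histone genes and 2 apolipoprotein L genes beside single genes of other roles. Clspn, which encodes the checkpoint adaptor claspin of S phase (chromosome 4 from 126556935 to 126593903), was at 46.2, 54.9 and 43.8 CPM in injured against 61.3, 60.4 and 68.5 CPM in contralateral libraries, a log2 fold change of −0.39 ± 0.10 (95% interval −0.60 to −0.18). Here all 3 contralateral libraries were above the naïve range of 47.6 to 57.1 CPM, and injured libraries 1 and 3 were below it. Hdac9, a class IIa histone deacetylase (chromosome 12 from 34047580 to 34917095), was at 9.04, 8.24 and 9.23 CPM against 14.3, 15.1 and 12.6 CPM, a log2 fold change of −0.66 ± 0.17. Dyrk3, a kinase that dissolves stress granules, was at 19.4, 21.4 and 18.4 CPM against 25.2, 29.7 and 25.6 CPM, and there the injured libraries lay below all naïve libraries. Eomes, a transcription factor of natural killer and effector T cells, was at 1.18, 1.39 and 1.22 CPM against 2.14, 3.11 and 2.34 CPM.

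A further 7 of the lower genes belong to families whose copies share sequence, so that the split of reads between members is uncertain. The 4 histone genes Hist1h2be, Hist2h4, Hist1h4f and Hist1h2ai had log2 fold changes of −0.64, −0.75, −0.73 and −0.71, and the ribosomal protein gene Rpl36 one of −0.38. Apol11b, an apolipoprotein L gene, was at 61.0, 56.5 and 47.9 CPM in injured against 156, 232 and 162 CPM in contralateral libraries, a log2 fold change of −1.73 ± 0.41 (95% interval −2.60 to −0.87). Its near copy Apol11a had one of −2.03 ± 0.51. Over the naïve libraries Apol11b ranged from 60.5 to 257 CPM, as wide a span as that between the knees. In a list drawn up after these values were seen, 9 of the 10 apolipoprotein L genes tested were below 0, with a median of −0.86 (−1.07 to −0.54 with 1 library left out), and the median of the family was lower in every injured library (−0.37, −0.49 and −0.47) than in any contralateral library (0.29, 1.14 and 0.17).

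Set against the naïve libraries, non-overlap of the knees came from either side. Among the 12 higher genes, the range of the naïve libraries was exceeded by all 3 injured libraries for 5 and undercut by all 3 contralateral libraries for 2. Among the 12 lower genes, the injured libraries were beneath that range for 6 and the contralateral libraries over it for 1. Over all 21129 genes tested, the injured libraries were above the naïve range for 222 genes (1.05%) and below it for 213 (1.01%), and the contralateral libraries above it for 144 (0.682%) and below it for 148 (0.700%). Among the 1058 genes with injured above contralateral libraries, 98 had the injured libraries above the naïve range and 70 the contralateral libraries below it. For most of these genes, then, both knees overlapped with naïve cartilage.

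**Figure D2:**
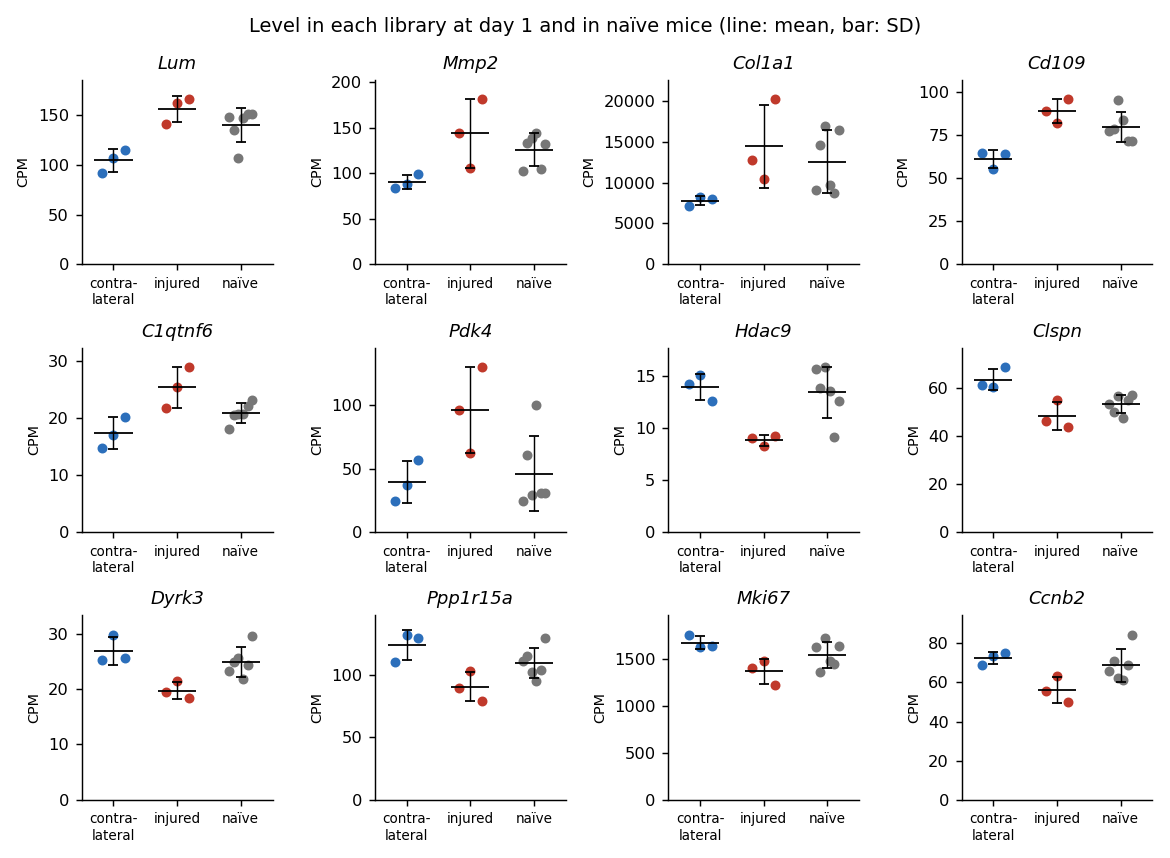
Level in CPM (vertical axes, from 0) of 12 genes in the 3 contralateral and 3 injured libraries at day 1 and the 6 naïve libraries, each point a library, with the mean as a line and the SD as a bar. The injured and contralateral points do not overlap in any panel, with injured higher in the first 6 (Lum, Mmp2, Col1a1, Cd109, C1qtnf6, Pdk4) and lower in the last 6 (Hdac9, Clspn, Dyrk3, Ppp1r15a, Mki67, Ccnb2), and the naïve points overlap with at least 1 knee in every panel.

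To see whether genes of known roles leaned together, 36 lists were described by their counts and medians, 21 of pathways and 15 of cell markers. Of these, 27 had a median log2 fold change above 0 and 9 below, against a median of −0.00152 over all genes tested. No list was tested as a set, and lists share genes: Col1a1 counts in 3 of them, as does Mmp9. Shares of list genes at an unadjusted p under 0.05 compare with 3.31% higher and 3.24% lower over all genes. Without the pair of libraries that stood apart, they compare with 5.53% and 4.26%. In each library, the level of a list was also taken as the median over its genes of the log2 difference from the mean of the 6 libraries. By that measure the knees did not overlap for 11 lists, with injured higher for 8 and lower for 3.

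**Figure D3:**
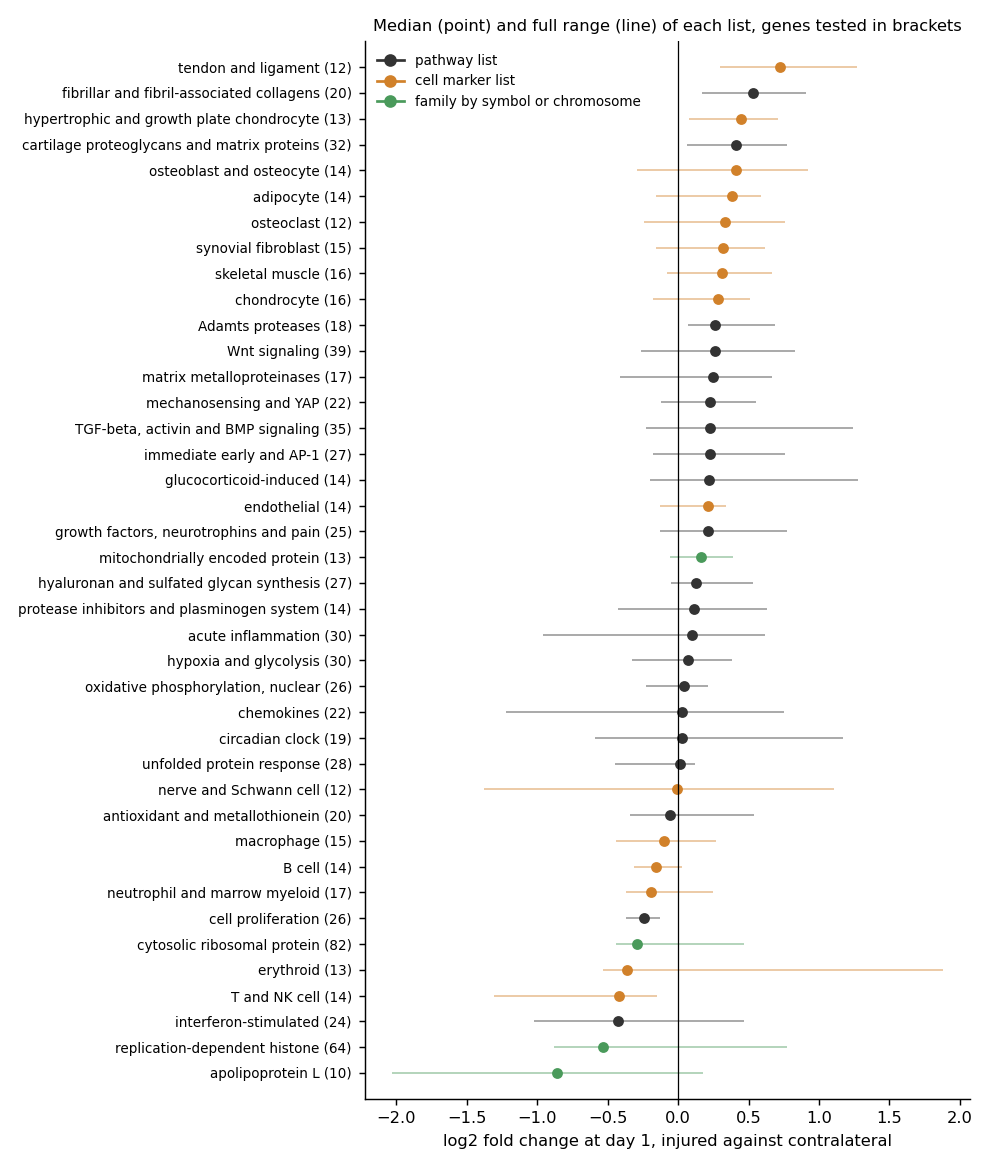
Median (point) and full range (line) of the log2 fold change of injured against contralateral knees at day 1 (horizontal axis) over the genes of each list, with the number tested in brackets, for 21 pathway lists, 15 cell marker lists and 4 families taken by symbol or chromosome. Tendon, collagen and hypertrophic chondrocyte lists lie farthest to the right, with medians of 0.72, 0.53 and 0.45, and T and NK cell, interferon, histone and apolipoprotein L lists farthest to the left, down to −0.86.

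Of 27 immediate early and AP-1 genes, the first to respond to injury, 23 were above 0, with a median log2 fold change of 0.23. At an unadjusted p under 0.05, 2 (7.41%) were higher, against 3.31% of all genes, and 4 (14.8%) had injured libraries above contralateral ones, against 5.01%. Without the 2 libraries that stood apart, 2 were higher and the median was 0.29, and leaving out 1 library at a time moved it between 0.11 and 0.35. The list levels of the knees overlapped, at 0.08, 0.24 and −0.14 in injured and −0.25, −0.12 and 0.13 in contralateral libraries. Ccn2, a matricellular growth factor of cartilage and a target of YAP, was at 201, 178 and 189 CPM in the injured and 137, 128 and 159 CPM in the contralateral libraries, a log2 fold change of 0.42 ± 0.17. The orphan nuclear receptor Nr4a2 was at 6.45, 11.4 and 5.92 CPM against 4.28, 4.57 and 5.37 CPM, or 0.74 ± 0.35. Neither pair of groups overlapped. Egr1, a zinc finger factor induced by load and growth factors, was at 38.6, 50.8 and 19.6 CPM against 21.9, 22.5 and 21.2 CPM, and the overlap came from injured library 3. Atf3, a stress-induced transcription factor, was at 8.75, 7.14 and 5.29 CPM against 4.17, 5.81 and 5.56 CPM, which overlapped too.

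Acute inflammation leaned in no direction that held. Of 30 genes tested, 18 were above 0 with a median of 0.10, and 1 was higher at an unadjusted p under 0.05. That gene was Steap4, a metalloreductase induced by inflammation, at 92.4, 60.2 and 65.6 CPM against 48.7, 56.2 and 59.7 CPM. Lcn2, an iron-sequestering protein of neutrophils and inflamed cartilage and the most abundant of the list, was at 819, 529 and 573 CPM against 625, 874 and 704 CPM, a log2 fold change of −0.20 ± 0.19 (95% interval −0.61 to 0.21). Il1a, an interleukin-1 cytokine, was at 2.75, 3.92 and 3.06 CPM against 4.79, 3.60 and 3.87 CPM, and Ptges, the inducible prostaglandin E synthase, at 10.2, 6.88 and 6.13 CPM against 4.86, 6.30 and 6.21 CPM. Groups overlapped for these 3. In single libraries the list followed the pair that stood apart, at 0.43 in injured library 2 and 0.43 in contralateral library 3, against −0.49 to −0.01 in the others. Without these 2 libraries 25 of 30 genes were above 0 and the median was 0.34, and leaving out 1 library at a time moved it between −0.14 and 0.47. Chemokines had 0 genes higher and 2 (9.09%) lower at an unadjusted p under 0.05, against 3.24% of all genes, with 13 of 22 above 0, a median of 0.03 and a range of −0.41 to 0.30 when 1 library was left out, and of 0.26 without the pair. Cxcl9, an interferon-induced chemokine, was at 20.9 CPM in contralateral library 2 and at 4.07 to 5.56 CPM in the other 5. Cxcl12, the most abundant chemokine, was at 748, 808 and 781 CPM against 820.2, 669 and 816 CPM.

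Proteases of the matrix leaned towards the injured knee. All 18 Adamts genes tested were above 0, with log2 fold changes from 0.07 to 0.69 and a median of 0.26. At an unadjusted p under 0.05, 3 (16.7%) were higher, against 3.31% of all genes. Adamts12, a protease of cartilage oligomeric matrix protein, was at 24.4, 17.6 and 26.4 CPM against 13.1, 16.5 and 16.5 CPM, a log2 fold change of 0.57 ± 0.18 (95% interval 0.19 to 0.95). Adamts2, the proteinase that trims the amino end of procollagens, was at 126, 92.2 and 144 CPM against 91.0, 85.9 and 89.5 CPM. The injured libraries were higher without overlap for both, though injured library 2 was close to the contralateral ones. Without the 2 libraries that stood apart, 16 of 18 were above 0 and the median was 0.39. In that comparison 7 were higher at an unadjusted p under 0.05, beside 5.53% of all genes.

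Of 17 matrix metalloproteinases, 11 were above 0 with a median of 0.25, and 4 (23.5%) were higher at an unadjusted p under 0.05. Mmp2, a gelatinase of connective tissue (chromosome 8 from 92827291 to 92853420), was at 145, 106 and 181 CPM against 83.9, 88.5 and 98.8 CPM, a log2 fold change of 0.67 ± 0.18 (95% interval 0.28 to 1.06). Mmp14, the membrane enzyme that activates pro-Mmp2, was at 117, 116 and 128 CPM against 73.0, 86.3 and 111 CPM, and Mmp16, a related membrane enzyme, at 11.6, 9.57 and 15.4 CPM against 7.18, 9.52 and 8.98 CPM. The groups did not overlap for these 3. Mmp9, a gelatinase of osteoclasts and neutrophils and the most abundant member in CPM, was at 946, 669 and 908 CPM against 684, 732 and 704 CPM, where they did. Without the 2 libraries that stood apart, 6 of the 17 were higher at an unadjusted p under 0.05 and the median was 0.40. It ran from 0.13 to 0.25 with 1 library left out, and the list levels of the knees overlapped. Protease inhibitors and the plasminogen system had 12 of 14 genes above 0 and a median of 0.11. This median ranged from 0.04 to 0.24 with 1 library left out and was 0.41 without the pair that stood apart. The list levels of the knees overlapped here too. Plat, the tissue plasminogen activator, was at 12.2, 7.78 and 11.9 CPM against 5.33, 6.15 and 9.08 CPM, and Serpine2, an inhibitor of such proteases, at 321, 244 and 291 CPM against 258, 227 and 229 CPM.

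Every collagen and matrix protein gene of the lists had a value above 0. The 20 fibrillar and fibril-associated collagen genes ran from 0.17 to 0.91 on the log2 scale with a median of 0.53, and 11 (55.0%) were higher at an unadjusted p under 0.05. The 32 cartilage proteoglycan and matrix protein genes ran from 0.06 to 0.77 with a median of 0.41, and 10 (31.2%) were higher. No gene was lower at that p in either list. Col5a1, the chain of type V collagen that sets fibril diameter, was at 353, 335 and 413 CPM in the injured and 187, 222 and 309 CPM in the contralateral libraries, a log2 fold change of 0.62 ± 0.18 (95% interval 0.24 to 1.00). Col6a1 and Col6a2, chains of the beaded filament collagen around chondrocytes, were at 289, 260.2 and 291 CPM against 151, 170.3 and 213 CPM and at 265, 221 and 258 CPM against 129, 155 and 189 CPM. Every injured library was above every contralateral library for these 3 genes, and the naïve libraries overlapped with both groups. Col1a1 (chromosome 11 from 94936224 to 94953042) was at 12796, 10405 and 20240.5 CPM against 7149.8, 8242 and 8047 CPM, a log2 fold change of 0.89 ± 0.30, with injured library 3 the highest. Here the 3 contralateral libraries lay below the lowest naïve library at 8766 CPM.

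Among the matrix proteins, Sparc, a collagen-binding glycoprotein of bone and connective tissue, was at 2998, 2185 and 3711 CPM against 1867, 2091 and 1866 CPM, or 0.61 ± 0.19, and matrilin 2 (Matn2) at 24.6, 21.1 and 25.4 CPM against 16.3, 17 and 19.0 CPM, or 0.44 ± 0.14. Both were without overlap. Fn1, fibronectin, the most abundant of the list in CPM, overlapped at 3222, 3463 and 3111 CPM against 2226, 1957 and 3427 CPM because contralateral library 3 was as high as the injured ones. Col2a1 overlapped as well, with a log2 fold change of 0.31 ± 0.23 (95% interval −0.18 to 0.79). Without the 2 libraries that stood apart, where injured library 2 had been the lowest injured one for both lists, the medians were 0.71 and 0.59, and 17 collagens and 16 matrix genes were higher at an unadjusted p under 0.05. Leaving out 1 library at a time kept the medians between 0.40 and 0.66 and between 0.38 and 0.57. In single libraries, the collagen list was at 0.34, −0.02 and 0.40 in injured and −0.45, −0.29 and −0.14 in contralateral knees, so that injured library 2 lay nearest to the contralateral ones. The naïve libraries ranged from −0.01 to 0.38 on that scale, close to the injured range. The contralateral libraries were below all naïve ones.

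Markers of tissues at the margin of the cap leaned with the matrix lists. The 12 tendon and ligament markers were all above 0, with a median of 0.72. Their summed level was 15129, 11955 and 22344 CPM in injured and 8650, 9597 and 9543 CPM in contralateral libraries, of which Col1a1 made up 86.6%. Among the others, Tnmd, tenomodulin of mature tendon, was at 11.5, 2.89 and 8.35 CPM against 3.23, 3.79 and 2.46 CPM, which overlapped, and Mkx, a tendon transcription factor, at 4.23, 4.05 and 4.28 CPM against 3.12, 2.40 and 2.17 CPM, which did not. Of 14 osteoblast and osteocyte markers, 12 were above 0 with a median of 0.41, and 7 (50%) were higher at an unadjusted p under 0.05. Their sum was 13719, 11253 and 21518 CPM against 7833, 8990 and 8741 CPM, with Col1a1 at 92.8% of it. Ibsp, bone sialoprotein, was at 319, 290.4 and 324 CPM against 205, 264 and 199.9 CPM, without overlap. Of 12 osteoclast markers, 9 were above 0 with a median of 0.33. Ctsk, the collagen-degrading cathepsin K of osteoclasts, was at 280.0, 266 and 324 CPM against 226, 216 and 179 CPM. All 13 markers of hypertrophic and growth plate chondrocytes were above 0 with a median of 0.45, or 0.28 to 0.54 with 1 library left out. Pth1r, the receptor of parathyroid hormone-related protein, was at 63.6, 55.3 and 65.0 CPM against 40.6, 47.1 and 45.7 CPM.

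The 15 synovial fibroblast markers had 14 genes above 0 and a median of 0.32, and summed to 1670, 2351 and 1593 CPM in injured and 1149, 1140 and 2219 CPM in contralateral libraries, with Prg4 at 62.5% of the sum. Fap, fibroblast activation protein, was at 67.7, 63.8 and 82.8 CPM against 60.7, 49.2 and 49.3 CPM, without overlap. The 16 chondrocyte markers had 15 above 0 and a median of 0.28, with sums of 7177, 5878 and 7152 CPM against 5292, 4918 and 6057 CPM and Col2a1 at 46.8%. Of them, 1 (6.25%) was higher at an unadjusted p under 0.05, against 3.31% of all genes. Their list level was 0.31, −0.23 and 0.27 in injured and −0.01, −0.17 and −0.22 in contralateral libraries. The knees thus overlapped, and all 6 libraries lay within the naïve range of −0.27 to 0.58. No marker of any of the 15 cell lists was at or under 3 counts in all 6 libraries. After removal of the pair that stood apart, 9 of 12 tendon, 8 of 14 osteoblast and 6 of 15 synovial fibroblast markers were higher at an unadjusted p under 0.05. Over all genes, 5.53% were higher in that comparison. With 1 library left out, the medians ranged over 0.47 to 0.76 (tendon), 0.28 to 0.53 (osteoblast) and 0.27 to 0.41 (synovial fibroblast). In list levels per library, the 3 contralateral libraries were below all naïve libraries for tendon (−0.28, −0.26 and −0.38, naïve from −0.12 to 0.71), osteoblast (−0.28, −0.21 and −0.37, naïve from −0.17 to 0.25) and synovial fibroblast markers (−0.18, −0.15 and −0.18, naïve from −0.13 to 0.35). The injured libraries were at 0.56, −0.14 and 0.39 for tendon, which is in the naïve range or just below it. For synovial fibroblast markers injured library 2, at −0.20, was below every contralateral library as well. The part of bone, tendon and lining tissue in the matrix lists was not tested.

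Signaling lists showed smaller medians. Of 35 genes of TGF-beta, activin and BMP signaling, 30 were above 0 with a median of 0.23, and 8 (22.9%) were higher at an unadjusted p under 0.05. The receptors Tgfbr1 and Tgfbr2 were at 100.2, 102.6 and 102.8 CPM against 86.7, 75.9 and 95.3 CPM and at 149, 126 and 153 CPM against 122, 117 and 126 CPM, log2 fold changes of 0.24 and 0.23. Gdf5, a joint morphogen of the BMP family, was under 1 CPM in every library, at 0.360, 0.551 and 0.923 CPM against 0.181, 0.337 and 0.239 CPM. The values did not overlap, though each rests on few counts. Of 22 mechanosensing and YAP genes, 20 were above 0 with a median of 0.23, and 5 (22.7%) were higher. Pkd2, the calcium channel polycystin 2, was at 63.0, 57.8 and 70.4 CPM against 45.5, 41.9 and 50.5 CPM, a log2 fold change of 0.47 ± 0.15, and Yap1, the transcriptional co-activator itself, at 44.2, 35.5 and 45.9 CPM against 33.2, 27.5 and 35.4 CPM, both without overlap. Its partner Wwtr1 (TAZ) was at 54.7, 41.7 and 60.4 CPM against 33.0, 34.8 and 43.4 CPM and overlapped, with injured library 2 below contralateral library 3. Without these 2 libraries, 14 genes of the TGF-beta list and 9 of the mechanosensing list were higher at an unadjusted p under 0.05. Their medians were then 0.39 and 0.40. Leaving out 1 library at a time gave medians of 0.12 to 0.33 for TGF-beta and 0.10 to 0.33 for mechanosensing. The list levels of the knees overlapped for both.

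Wnt genes were above 0 for 35 of 39, with a median of 0.26 and 3 (7.69%) higher, or 7 higher and a median of 0.37 without the pair that stood apart. Leaving out 1 library at a time moved that median between 0.14 and 0.35, and the list levels of the knees overlapped. The receptor Fzd6 was at 7.57, 7.36 and 9.99 CPM against 6.71, 6.07 and 7.00 CPM, and the ligand Wnt9a at 4.46, 1.72 and 5.25 CPM against 2.54, 1.95 and 1.93 CPM. Growth factors, neurotrophins and pain genes were above 0 for 23 of 25, with a median of 0.21 and 3 (12.0%) higher. Without the pair, 4 were higher and the median was 0.38, and with 1 library left out it ranged from 0.12 to 0.27. Fgfr1, a fibroblast growth factor receptor, was at 126, 112 and 143 CPM against 99.2, 91.2 and 106 CPM, and Igf1, the insulin-like growth factor, at 104, 77.8 and 98.9 CPM against 63.6, 75.2 and 72.6 CPM, both without overlap. The neuropeptide gene Calca was at or under 3 counts in all 6 libraries. Of 27 genes of hyaluronan and sulfated glycan synthesis, 23 were above 0 with a median of 0.13, which was 0.02 without contralateral library 2, and the list levels of the knees overlapped. Cemip, a hyaluronan-degrading protein, was at 31.3, 25.5 and 33.8 CPM against 18.8, 23.6 and 20.3 CPM, a log2 fold change of 0.53 ± 0.15.

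Stress and metabolism lists were mixed. The unfolded protein response had 15 of 28 genes above 0 and a median of 0.01, and 2 genes were lower at an unadjusted p under 0.05. Ppp1r15a (Gadd34), which restarts translation after stress, was at 90.1, 103.1 and 79.4 CPM against 111, 132 and 129.7 CPM, a log2 fold change of −0.45 ± 0.13 (95% interval −0.72 to −0.18). Ddit3 (Chop), a stress-induced transcription factor, was at 8.03, 8.30 and 8.18 CPM against 9.86, 10.9 and 9.15 CPM. Of 20 antioxidant and metallothionein genes, 8 were above 0, 4 (20%) were lower and 1 was higher at that p. The lower ones included the superoxide dismutase Sod1 at 87.3, 80.6 and 75.9 CPM against 95.4, 105 and 91.9 CPM and catalase (Cat) at 120.0, 117 and 118 CPM against 135, 131 and 136 CPM. The higher one was Slc7a11, the cystine transporter, at 17.3, 11.2 and 12.6 CPM against 8.41, 9.67 and 10.1 CPM. All 3 were without overlap. Hypoxia and glycolysis genes had a median of 0.07, nuclear genes of oxidative phosphorylation one of 0.04 and clock genes one of 0.03. With 1 library left out, these medians ranged from 0.02 to 0.14, −0.08 to 0.17 and −0.19 to 0.13. Of 30 hypoxia and glycolysis genes, 1 was higher and 2 were lower at that p, and of 19 clock genes 1 was higher. P4ha1, a hypoxia-induced prolyl hydroxylase of collagen, was at 64.0, 55.6 and 61.4 CPM against 43.5, 42.2 and 53.3 CPM, and Clock, a core clock factor, at 51.1, 44.2 and 53.9 CPM against 35.7, 37.9 and 40.1 CPM. Lower without overlap were Hk1, a hexokinase, at 166, 172 and 140.0 CPM against 193, 179 and 201 CPM, and Cry1, a repressor of the clock, at 13.7, 16 and 15.7 CPM against 17.6, 17.5 and 17 CPM.

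Glucocorticoid-induced genes can report a response of the whole animal, but both knees carry it, so this comparison does not show it. They were above 0 for 11 of 14 with a median of 0.22, or 0.12 to 0.24 with 1 library left out. The list levels of the knees overlapped. Pdk4, a kinase that turns cells from glucose to fat oxidation (chromosome 6 from 5483351 to 5496309), was at 96.5, 61.9 and 129.9 CPM against 24.4, 37.1 and 57.0 CPM, a log2 fold change of 1.28 ± 0.49 (95% interval 0.24 to 2.32). Cdkn1a, the cell cycle inhibitor p21, was at 31.3, 34.7 and 29.5 CPM against 14.7, 21.5 and 29.3 CPM. Both were without overlap by a small margin. Interferon-stimulated genes had 19 of 24 below 0 and a median of −0.43, with 0 genes at an unadjusted p under 0.05. This direction rested on 1 library: without contralateral library 2 the median was 0.75. In the naïve libraries the list ranged from −0.72 to 1.73, as wide as over the 6 day 1 libraries (−0.76 to 1.62).

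Cell cycle genes leaned the other way from the matrix. All 26 proliferation genes were below 0, with log2 fold changes from −0.37 to −0.13 and a median of −0.24, and 12 (46.2%) were lower at an unadjusted p under 0.05. Mki67, the proliferation marker Ki-67, was at 1399.6, 1479.9 and 1222 CPM in injured against 1753, 1626 and 1635 CPM in contralateral libraries, a log2 fold change of −0.29 ± 0.13. Ccnb2, a mitotic cyclin, was at 55.6, 63.3 and 50 CPM against 69.1, 73.7 and 75.1 CPM, or −0.37 ± 0.12, and the mitotic kinesin Kif20a and kinase Plk1 had log2 fold changes of −0.29 and −0.28. The groups did not overlap for any of these 4. In single libraries the list was at −0.12, 0.06 and −0.32 in injured and 0.14, 0.11 and 0.14 in contralateral knees, with naïve libraries at −0.03 to 0.20, so the 2 lowest injured libraries were below the naïve range. Without the 2 libraries that stood apart, 20 were lower at an unadjusted p under 0.05, and the median was −0.32, while leaving out 1 library at a time moved it between −0.34 and −0.15.

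Histone and ribosomal protein genes went with them, in lists taken by symbol after their values were seen. Of 64 replication-dependent histone genes, 61 were below 0 with a median of −0.53, and 49 (76.6%) were lower at an unadjusted p under 0.05. Their sum was 12320, 13604 and 8732 CPM in injured and 15228, 15679 and 19425 CPM in contralateral libraries. Of 82 cytosolic ribosomal protein genes, 79 were below 0 with a median of −0.29, and 43 (52.4%) were lower. Injured library 3, the library of lowest depth, was lowest in both families, and contralateral library 3, the deepest, was highest, at −0.66 and 0.49 for histones and −0.38 and 0.21 for ribosomal proteins. Leaving out the pair that stood apart, 42 histone and 32 ribosomal protein genes were lower at an unadjusted p under 0.05. Without injured library 3 the medians were −0.37 and −0.18. The part of depth in these differences was not tested. Reads of histone and ribosomal genes can match several copies, so the families are firmer than single members.

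Markers of marrow and blood cells had medians below 0, and the knees overlapped in list level for erythroid, neutrophil and macrophage markers. Of 13 erythroid markers, 12 were below 0 with a median of −0.36, and 4 (30.8%) were lower at an unadjusted p under 0.05. They summed to 25900, 35880 and 20372 CPM in injured and 38887, 31653 and 42022 CPM in contralateral libraries, with Hbb-bs at 40.2% of the sum. Hbb-bs overlapped at 10156, 14765 and 7072 CPM against 16941, 12425 and 16885 CPM. All 14 T and NK cell markers were below 0 with a median of −0.42, at sums of only 65.3, 73.7 and 63.8 CPM against 77.3, 99.8 and 79.6 CPM, with Il7r the largest part (28.1%). Gzma, a granzyme of cytotoxic cells, was at 1.51, 2.08 and 1.01 CPM against 2.90, 5.96 and 2.75 CPM. B cell markers were below 0 for 11 of 14, with a median of −0.16 that was 0.02 without injured library 1, and 0 of them, as of the neutrophil and macrophage markers, were lower at an unadjusted p under 0.05 by edgeR. Neutrophil and marrow myeloid markers were below 0 for 13 of 17 with a median of −0.19, and S100a8, a calcium-binding protein of neutrophils, was at 2607, 1758 and 1539.5 CPM against 2512, 2915 and 2178 CPM, which overlapped. Macrophage markers had a median of −0.10, and their most abundant gene Lyz2 was at 2164, 1762 and 1670.5 CPM against 1911, 1958 and 2141 CPM. With that pair removed, 8 erythroid and 4 T and NK cell markers were lower at an unadjusted p under 0.05. With 1 library left out, medians ranged from −0.53 to −0.21 for erythroid, −0.43 to −0.05 for neutrophil and −0.24 to −0.03 for macrophage markers. The part of marrow cells in the proliferation, histone and ribosomal lists was not tested.

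Endothelial, adipocyte, muscle and nerve lists overlapped between the knees in their levels. Above 0 were 12 of 14, 13 of 14, 15 of 16 and 6 of 12 genes, and the medians were 0.21, 0.38, 0.31 and −0.01, with 0, 0, 0 and 2 genes higher at an unadjusted p under 0.05. Adipocyte and muscle lists varied between libraries of 1 knee by more than between the knees, as the plot of gene groups by library shows. Leaving out 1 library at a time moved the median of the muscle list between −0.19 and 0.68, that of the adipocyte list between 0.05 and 0.83 and that of the endothelial list between 0.08 and 0.35.

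**Figure D4:**
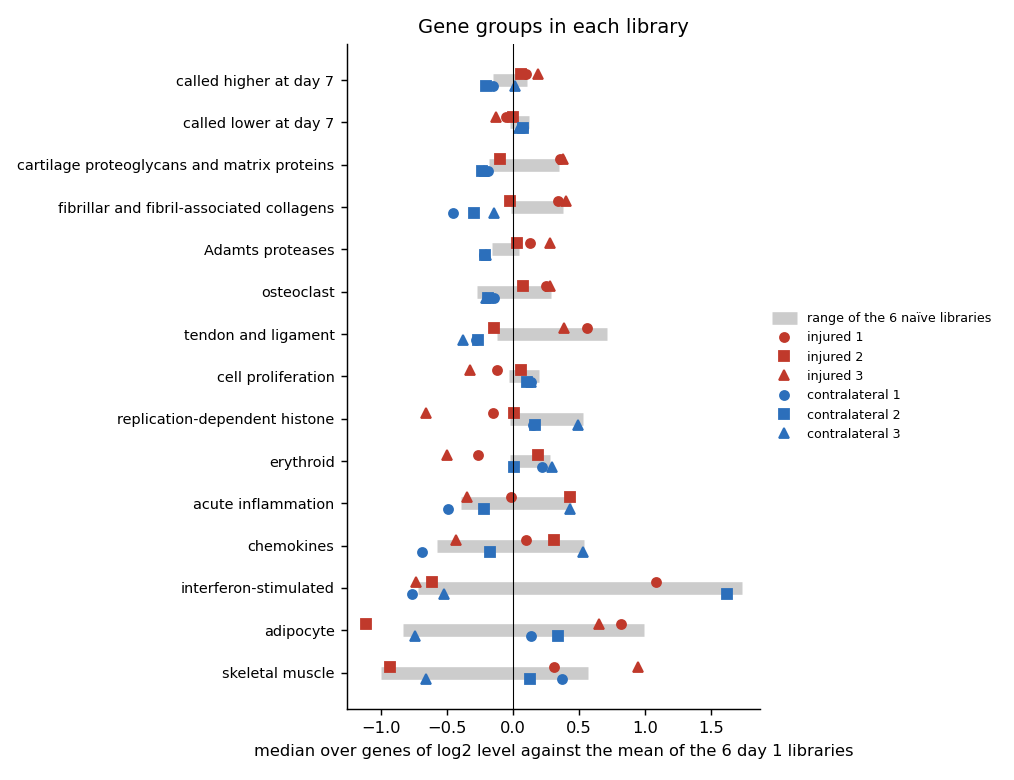
Median over the genes of each group of the log2 level against the mean of the 6 day 1 libraries (horizontal axis), for injured (red) and contralateral (blue) libraries 1 to 3, with the range of the 6 naïve libraries as a grey bar. Injured points lie to the right of contralateral points for matrix, collagen, Adamts, osteoclast and tendon genes and to the left for proliferation and histone genes, while interferon, adipocyte and muscle genes spread by library.

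Genes that were called later gave another view of day 1. Among 21262 genes tested at day 7, the injured knee had 1984 (9.33%) called above the contralateral knee and 686 (3.23%) below it. The 6 libraries compared there came from other mice. The fit held all 18 libraries, so the filter, the scaling and the estimate of spread drew on the day 1 libraries too. At day 1 the 1984 genes had a median log2 fold change of 0.236 (quartiles 0.11 to 0.37), and 1787 of them (90.1%) were above 0, against 49.7% of all genes. Of the set, 338 (17%) were higher at an unadjusted p under 0.05, and 347 (17.5%) had injured libraries above contralateral ones without overlap. These shares compare with 3.31% and 5% of the genes in both comparisons. The median grew with the size of the day 7 difference, from 0.156 for genes under a log2 fold change of 1 at day 7 to 0.280, 0.350 and 0.426 for those from 1 to 2, from 2 to 3 and of 3 or more. The share above 0 did not grow with it, at 88.1%, 92.2%, 89.3% and 88.7%, nor did the share without overlap, at 17.1%, 18.4%, 15.9% and 16.5%. In the last group, a median of 3.58 at day 7 stood beside 0.426 at day 1.

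Relative to the naïve mean, the median of the set was 0.10, 0.06 and 0.18 in the injured and −0.17, −0.21 and 0.02 in the contralateral libraries, while the naïve libraries themselves ranged from −0.16 to 0.10. Only injured library 3 was above that range, and 2 contralateral libraries were below it. For 33 of the 1984 genes (1.66%, against 1.05% of all genes) all injured libraries were above all naïve libraries, and for 60 (3.02%, against 0.700%) all contralateral libraries were below them. Without the 2 libraries that stood apart the median was 0.35 and 614 genes were higher at an unadjusted p under 0.05. The genes called lower at day 7 leaned less, with 175 of 681 (25.7%) above 0, a median of −0.132, and 93 (13.7%) lower at an unadjusted p under 0.05. Among them the 32 genes with the largest fall at day 7, by 2 or more on the log2 scale, had a median of 0.352 at day 1, which is above 0. Against the mean of the 6 libraries, their median level was 0.17, −0.15 and 0.59 in injured and 0.22, 0.24 and −0.22 in contralateral libraries. The knees thus overlapped, and 0 of the 32 genes were at an unadjusted p under 0.05 in either direction. One day 7 contralateral library had 42.5% of its counts in its 10 most abundant genes, against 16.6% to 29.8% in the other libraries. When the day 7 genes were chosen without it, 2030 were higher and 434 lower. The 2022 and 428 of them tested at day 1 had medians of 0.23 and −0.08, with 89.5% and 38.1% above 0.

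**Figure D5:**
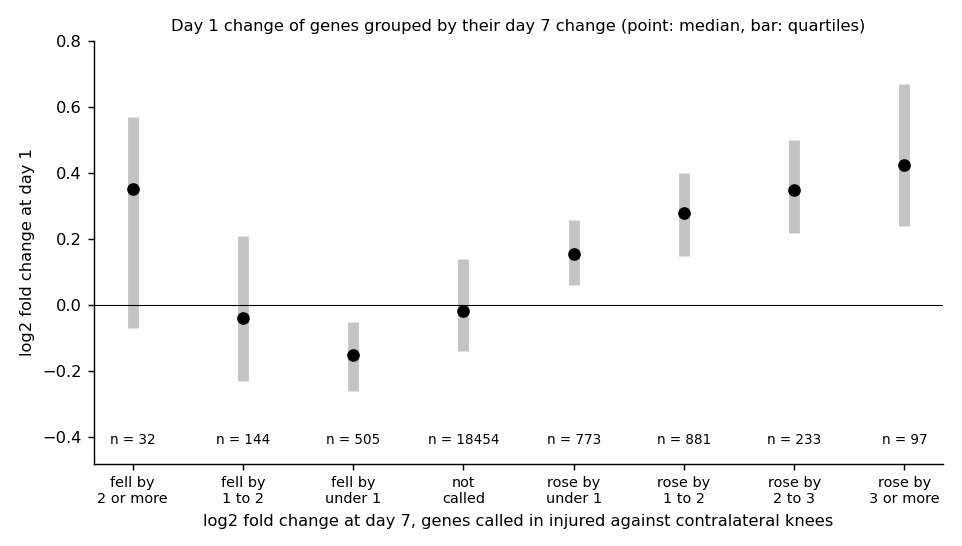
Log2 fold change at day 1 (vertical axis) of genes grouped by their call and log2 fold change at day 7 (horizontal axis), with the median as a point, the quartiles as a bar and the number of genes below. Medians go from −0.018 in 18454 genes not called to 0.426 in the 97 genes that were higher by 3 or more. The 32 genes that were lower by 2 or more at day 7 have a median of 0.352, and their median levels per library overlapped between the knees.

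The injury effects themselves differed between the days. In a test of the day 7 difference minus the day 1 difference over all 18 libraries, 750 genes (3.53%) were called larger and 52 (0.245%) smaller at day 7. Without the day 7 contralateral library of high top-gene share the counts were 892 and 70. The first count was 393 without injured day 7 library 3, 447 without contralateral day 1 library 3 and 483 without injured day 1 library 1, and the second ranged from 9 to 91 when 1 library was left out. The next genes were chosen by their small p at day 7, so their difference between the days is a description. C1qtnf3, a secreted C1q-like protein of cartilage, was at 7.70, 5.19 and 10.1 CPM in injured and 8.34, 7.72 and 5.49 CPM in contralateral libraries at day 1, a log2 fold change of 0.09 ± 0.31 (95% interval −0.56 to 0.74), beside 6.72 at day 7. The difference was 6.62. Piezo2, a mechanically gated channel, had 0.12 at day 1 and 3.46 at day 7. Thbs2, a matricellular thrombospondin, was at 90.7, 62.6 and 91.5 CPM against 49.9, 54.1 and 61.5 CPM at day 1 and did not overlap, with 0.56 ± 0.21 beside 4.14 at day 7. Col12a1, a collagen that associates with fibrils, was without overlap at day 1 too, at 0.53 beside 3.45.

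Further genes, most of them named by the study for their change at day 7 in these libraries, varied at day 1. For the genes so named, the difference between the days is a description. Postn, the matricellular protein periostin, was at 115, 211 and 149.5 CPM in injured and 67.6, 72.8 and 214 CPM in contralateral libraries, so that contralateral library 3 matched the highest injured one. Its log2 fold change was 0.43 ± 0.50 at day 1 and 5.03 at day 7, with a called difference (edgeR adjusted p = 0.00138). Loxl2, an enzyme that crosslinks collagen, was at 107, 68.1 and 111 CPM against 50.2, 68.4 and 60.2 CPM, where injured library 2 fell among the contralateral values, a log2 fold change of 0.68 ± 0.21 (95% interval 0.22 to 1.13). Htra1, a serine protease of cartilage matrix, showed the same arrangement at 68.3, 40.9 and 73.0 CPM against 40.9, 44.9 and 38.2 CPM, or 0.55 ± 0.20. Sulf2, a heparan sulfate sulfatase, had a day 1 value of 0.30 ± 0.19 beside 2.86 at day 7, and Adamts7, a protease of cartilage oligomeric matrix protein, 0.19 ± 0.18 beside 1.25. Fyn, a Src family kinase, was at 33.7, 38.1 and 42.9 CPM against 37.3, 38.7 and 39.4 CPM, a log2 fold change of −0.01 ± 0.11. Sp7, the osteoblast factor osterix, went the other way between the days, at 0.45 ± 0.17 at day 1 and −0.45 at day 7, with a called difference of −0.90 (edgeR adjusted p = 0.0422). The day 7 values of these genes include the contralateral library of high top-gene share.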

How the data were processed

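Total RNA depleted of ribosomal RNA was sequenced from pooled cartilage caps. The authors trimmed reads with Trimmomatic and quantified them with Kallisto against the GRCm38 mouse transcriptome. The submitters' processing notes name kallisto, DESeq2 and the human build GRCh38, but the transcript identifiers are mouse. The deposited files give estimated counts, TPM and effective lengths (a score here) per transcript. A library that the study removed for low mapping is not named in the sources, so all libraries given were used.

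Of 137436 transcripts, 135107 (98.3%) were matched to 49184 genes of GENCODE vM21, and estimated counts were summed per gene and rounded. The unmatched share was 0.667% to 3.9% of counts. The deposited TPM and effective lengths entered 1 alternative. Day 1 was tested with edgeR 4.0.16 (TMM, filterByExpr, quasi-likelihood, a mean per group) in R 4.3.3 on 15 libraries, without the day 7 contralateral libraries. Day 7 and the difference between days were tested in a fit of all 18. A call required a Benjamini-Hochberg FDR of at most 0.05 and 1.5-fold. This count model was the main test in place of the study's limma-voom with a correlation for mouse pools, because the labels do not give the pools. Limma 3.58.1 (voom) and DESeq2 1.42.0 were alternatives, with other filters, scalings and libraries. The fits were tested on simulated data.

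Nothing in the labels says which libraries share mice, so p-values measure the spread between these pools. With 3 against 3 libraries an exact permutation test of 1 gene cannot go below p = 0.10. CPM in the text are TMM-scaled, and list levels per library used a prior count of 2. Genes were named if they were the 12 higher and 12 lower of smallest p among protein-coding genes of at least 1 CPM without overlap, the 3 of smallest p or the 1 of highest CPM in a list, named by the study for these libraries, or among the 10 of smallest p called higher at day 7. Members and lists were chosen with earlier results of these data known, and support nothing by themselves. Values of a few genes that the rule chose are not reported here.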

Additional observations from a re-analysis of the deposited data

Results flagged for a closer look

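The injury effect at day 7 minus that at day 1, tested over all 18 libraries with edgeR, was called for 750 genes with a larger and 52 with a smaller value at day 7. Over all genes tested, these were 3.53% and 0.245%. Among the 170 genes that the naming rule chose, 42 were called. Of these, 10 had been chosen for their small p at day 7, which favours such a call. Sulf2, Loxl2, Gdf5, Sox9, Htra1, Adamts7, Postn and Acvr1 were named by the study for their day 7 change in these libraries, which favours it too. The count of 42 is thus a description. The values that follow are differences of log2 fold changes, day 7 minus day 1.

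Collagens and matrix proteins had differences of 1.57 (Col15a1), 2.2 (Col5a1), 2.48 (Col6a1), 2.44 (Col6a2), 2.92 (Col12a1), 1.66 (Fn1), 2.52 (Lum), 2.76 (Matn2), 4.6 (Postn), 0.98 (Smoc2) and 3.57 (Thbs2). Enzymes that make, modify or cleave matrix had 1.69 (Adamts12), 1.05 (Adamts7), 1.44 (Chpf), 1.76 (Htra1), 2.16 (Loxl2), 2.47 (Mmp2), 2.02 (Mmp14), 0.88 (P4ha1), 1.32 (Pcolce) and 2.56 (Sulf2). Growth factors, receptors and signaling genes had 1.06 (Acvr1), 0.92 (Adgra3), 1.79 (Fzd6), 2.6 (Gdf5), 2.95 (Igf1), 0.75 (Lrp6), 0.59 (Tgfbr2) and 1.1 (Wwtr1). Transcription factors had 2.37 (Nr4a2), 1.44 (Sox9) and −0.9 (Sp7), the last being the 1 named gene with the smaller value at day 7. The rest were adhesion, channel, transporter, cytoskeletal and secreted proteins, at 0.96 (Itgb1), 3.34 (Piezo2), 1.62 (Pkd2), 1.42 (Slc6a2), 2.16 (Tubb2b), 6.62 (C1qtnf3), 1.81 (C1qtnf6), 3.13 (Capn6), 1.92 (Mxra8) and 2.7 (Tnmd).

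In 4 of 58 groups of naïve libraries looked at, 1 library lay far from the other 5, where chance gives about 1 in 20. Lum was lowest at 107 CPM, with the next library at 135 CPM, and Fyn was lowest at 31.7 CPM, with the next at 37.0 CPM. Loxl2 was highest at 116 CPM, with the next at 78.8 CPM, and Capn6 was highest at 17 CPM, with the next at 13.3 CPM.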

How the results depend on the processing

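No gene was called at day 1 under any alternative: the lowest FDR was 0.77 with DESeq2's size factors, 0.861 without the filter, 0.846 with transcript length as an offset, 0.315 with the 6 day 1 libraries alone, 0.993 with all 18, 0.759 with day 1 and naïve libraries, and 0.229 or more with 1 library left out. A looser FDR of 0.1, or no fold threshold, also called 0. No paired analysis was possible because the labels give no pool numbers, so that which injured and contralateral libraries share mice is not known.

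At an unadjusted p under 0.05 the higher genes numbered 289 to 1352 and the lower ones 241 to 1257 with 1 library or the pair that stood apart left out, and the lower ones 387 with all 18 libraries. The difference between days was called larger for 393 to 892 genes and smaller for 9 to 91 with 1 library left out. The smaller count was 25 without the filter, 160 with DESeq2 and 21 with only the 12 day 1 and day 7 libraries.

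Medians of lists ranged, with 1 library or the pair left out, over 0.13 to 0.40 (matrix metalloproteinases), 0.23 to 0.39 (Adamts), 0.04 to 0.41 (protease inhibitors), 0.12 to 0.39 (TGF-beta), 0.12 to 0.38 (growth factors), 0.02 to 0.21 (hypoxia), 0.02 to 0.25 (hyaluronan and glycan synthesis), 0.11 to 0.35 (immediate early), −0.27 to 0.02 (B cell), 0.05 to 0.83 (adipocyte), −0.19 to 0.13 (clock), −1.18 to 0.75 (interferon), 0.10 to 0.40 (mechanosensing), 0.26 to 0.44 (osteoclast), 0.27 to 0.57 (synovial fibroblast), 0.18 to 0.35 (called higher at day 7) and −0.15 to −0.08 (called lower at day 7). With 1 library left out, further lists ranged over 0.14 to 0.35 (Wnt), 0.12 to 0.24 (glucocorticoid), −0.34 to −0.15 (proliferation), −0.14 to 0.47 (acute inflammation), −0.41 to 0.30 (chemokines), −0.06 to 0.09 (unfolded protein response), −0.17 to 0.05 (antioxidant), −0.08 to 0.17 (oxidative phosphorylation), 0.22 to 0.39 (chondrocyte), 0.28 to 0.54 (hypertrophic), 0.28 to 0.53 (osteoblast), 0.47 to 0.76 (tendon), −0.53 to −0.21 (erythroid), −0.43 to −0.05 (neutrophil), −0.24 to −0.03 (macrophage), −0.58 to −0.37 (T and NK cell), 0.08 to 0.35 (endothelial), −0.19 to 0.68 (muscle), −0.11 to 0.05 (nerve), −0.67 to −0.37 (histone), −0.35 to −0.18 (ribosomal protein) and −1.07 to −0.54 (apolipoprotein L). In the first group the upper ends came in most cases from removing the pair, and causes were not tested.

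Some named genes changed sign. With 1 library or the pair that stood apart left out, log2 fold changes ranged from −0.10 to 0.08 (Fyn), −0.11 to 0.11 (Calr), −0.68 to 0.77 (Tgfbi), −0.04 to 0.40 (Bhlhe40), −0.07 to 0.07 (Cxcl12), −0.06 to 0.20 (Cd44), −0.06 to 0.60 (Aldoa), −1.26 to 0.12 (Gbp2), −1.05 to 0.27 (Gbp3), −1.82 to 0.70 (Irf7), −0.71 to 0.24 (Rsad2), −0.02 to 0.42 (Atp5g1), −0.03 to 0.14 (Atp5b), −0.03 to 0.18 (Itgb1), −0.19 to 0.98 (Prg4), −0.44 to 0.01 (Il7r), −0.03 to 0.80 (Acta1), −0.10 to 0.66 (Ttn), −0.48 to 0.03 (Prx) and −0.15 to 0.32 (C1qtnf3). Other settings gave Fyn 0.01 with size factors and with DESeq2, 0 with day 1 and naïve libraries and 0.02 with length, Calr −0.01 without the filter and −0.03 with length, Tgfbi 0.03 with voom and Bhlhe40 −0.05 with length. Over single genes, 2508 values kept their direction and 41 did not.

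Depth limits genes below 1 CPM, where the median standard error was 0.435. Cartilage, bone, tendon and marrow RNA were not separated, and 3 pools per knee leave 1.5-fold differences undetectable for many genes.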

Other observations

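The mitochondrially encoded protein genes, a list drawn up after the data were seen, were above 0 for 12 of 13 with a median log2 fold change of 0.16 at day 1, and the knees overlapped, at 0.06, −0.34 and 0.45 in injured and −0.23, 0.24 and −0.27 in contralateral libraries. Leaving out 1 library at a time moved the median between −0.02 and 0.38.

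Naïve library 5 shared the pattern of the pair of day 1 libraries that stood apart. Prg4 was at 1445 CPM, Tgfbi at 504 CPM and Postn, periostin, at 312 CPM there, next to 1811, 395 and 211 CPM in injured library 2 and 1685, 484 and 214 CPM in contralateral library 3. Car3, a carbonic anhydrase of fat and muscle, was at 203, 223 and 214 CPM in injured library 2, contralateral library 3 and naïve library 5, and the muscle gene Ttn, titin, at 1792, 2046 and 2086 CPM.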
